A study of Arabidopsis thaliana with 18 samples.

Results

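Seeds of Arabidopsis thaliana take up water after harvest, and a small group of transcripts that are almost absent from the dry seed then appears. The genes described here were picked by raw counts in the wild type Col-0. Their reads summed to 3 or fewer over the 3 dry libraries, and each of the 3 imbibed libraries held 30 or more. Of the 32833 genes in the count table, 31 met both limits. A set of 7 loci was left out by name, 5 of which met the limits, so 26 genes remained. They comprise 23 protein-coding genes, 2 small nucleolar RNAs and 1 microRNA precursor. Near zero describes them better than zero, since 2 of the 26 (scpl44 and AT4G34800) had no read at all in dry Col-0 and 24 had 1 to 3.

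The groups were mkk3-1 (MKK3 knockout) imbibed and dry, mpk7_ko3 (MPK7 knockout) imbibed and dry, and the wild type imbibed and dry, all in the Col-0 ecotype and with 3 RNA sequencing libraries each. Whole seeds were sampled right after harvest, as dry seeds or after 6 h on wet filter paper. MKK3 acts as a kinase kinase in a mitogen-activated protein kinase cascade, and MPK7 is a kinase that it can activate. The labels do not say whether replicates came from separate plants, so the p-values measure the spread between libraries, which may be technical. Library totals ran from 18249333 to 21036275 counts, and no pair of replicates agreed within counting noise (chi-square per degree of freedom 7.22 to 34.9). MPK7 averaged 12.9 CPM (counts scaled to library size) in imbibed mpk7_ko3 against 35.2 CPM in imbibed Col-0, and 14.7 CPM in dry mpk7_ko3 against 41.3 CPM in dry Col-0. MKK3 averaged 7.36 CPM in dry mkk3-1 against 17.4 CPM in dry Col-0. Imbibed libraries labelled mkk3-1 held 10.3 to 12.7 CPM of MKK3 and those of imbibed Col-0 12.5 to 14.1 CPM, so MKK3 did not separate these groups.

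A dry seed stores messenger RNA made while it matured and transcribes little. Water uptake restarts transcription within hours, together with the synthesis of ribosomes and proteins, and the embryo then prepares to loosen its cell walls so that its cells can expand. Freshly harvested seeds of Col-0 are commonly dormant to some degree, and the MKK3 module is known as a regulator of that dormancy.

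All 26 genes rose on imbibition in both mutants, although the mutants had no part in choosing them. By edgeR's quasi-likelihood test with Benjamini-Hochberg adjustment over 17758 genes, adjusted p ran from 1.66e-08 to 0.0124 in mkk3-1 and from 1.34e-08 to 0.0116 in mpk7_ko3. Of all genes tested, 37.5% rose in mkk3-1 and 37.6% in mpk7_ko3. The median log2 change over the members was 4.52 in mkk3-1 and 4.59 in mpk7_ko3, or 3.73 and 3.75 with genes that had no dry read set to their bounds, beside 0.048 and 0.059 over all genes. Every imbibed library lay above every dry library of its genotype for 26 of 26 genes, in mkk3-1 and in mpk7_ko3, where 39.6% and 37.8% of all genes tested did so. A fixed minimum of reads decides which genes are tested, and on the libraries of one mutant alone 20 genes passed it in mkk3-1 and 23 in mpk7_ko3. All of these were called there as well. On the dry libraries alone 0 of the 26 passed, so a gene passed only through its imbibed libraries. Such calls were favoured by the filter and add no support. The shares of all genes are not restricted to genes with so few dry reads.

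Dry seeds held few reads of these genes in any genotype. Dry mkk3-1 held 95 reads of the 26 genes and dry mpk7_ko3 held 88, against 48 in dry Col-0. The rule capped the Col-0 reads and not those of the mutants, so the Col-0 sum was kept low by the choice of genes. No dry read was found for 6 genes in mkk3-1 and for 4 in mpk7_ko3, while 11 and 12 genes had more than 3. The highest sum was 12 reads (AT4G18460 in dry mkk3-1), and no single dry library held more than 8 reads of any member. On the dry libraries alone 0 of the 26 genes passed the minimum for a test. The fit over all libraries gave 0 calls between dry mkk3-1 and dry mpk7_ko3 by edgeR, 0 at an unadjusted p below 0.05 and 0 by DESeq2, beside 0.766% of all genes called higher and 0.445% lower by edgeR and 17.2% at an unadjusted p below 0.05. At so few reads this says nothing about whether the dry mutants differ.

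**Figure D1:**
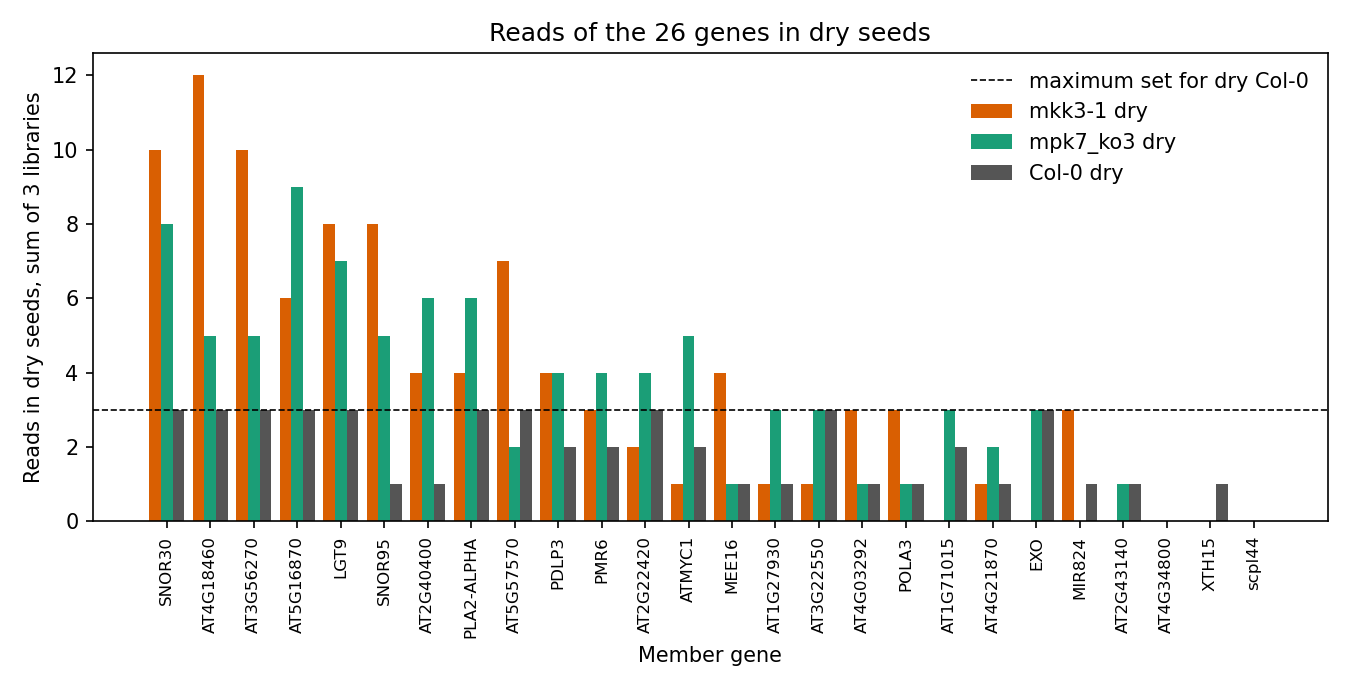
Reads of each gene in dry seeds, summed over 3 libraries per genotype (bars), with the maximum of 3 that the rule set for dry Col-0 as a dashed line. AT4G18460 stands highest with 12 reads in dry mkk3-1, followed by SNOR30 and AT3G56270 with 10 each, and scpl44 and AT4G34800 have no bar in any genotype.

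At the upper end, the mutants reached a lower level. Summed over the 26 genes, imbibed mkk3-1 held 28.5, 37.3 and 41.6 CPM, imbibed mpk7_ko3 57.4, 45.9 and 38.0 CPM, and imbibed Col-0 70.1, 62.6 and 71.7 CPM. All mutant libraries lay below all Col-0 libraries, and the mutants overlapped each other. The dry sums were 1.63 to 2.02 CPM in mkk3-1, 1.27 to 2.41 CPM in mpk7_ko3 and 0.685 to 1.42 CPM in Col-0. Because the rule set a minimum on the imbibed Col-0 libraries and none on the mutants, the level against Col-0 is not independent of the choice and is given as a description, with no test. In whole seeds, fewer cells that express a gene and less RNA per cell cannot be told apart.

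**Figure D2:**
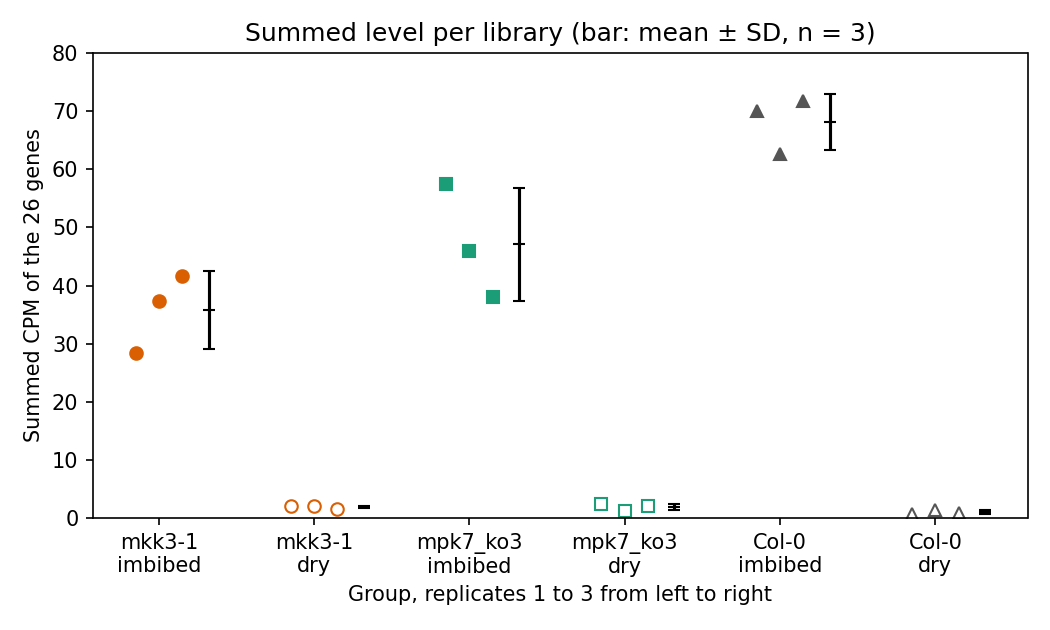
Summed CPM of the 26 genes in each library (points, replicates 1 to 3 from left to right) with the mean and SD of each group (n = 3). Imbibed mkk3-1 lies between 28.5 and 41.6, imbibed mpk7_ko3 between 38.0 and 57.4 and imbibed Col-0 between 62.6 and 71.7, and all dry libraries lie below 2.5.

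Imbibed mkk3-1 stood at a median of 53.5% of the Col-0 mean CPM, with 24 of 26 genes below Col-0 in their mean log2 CPM. So did 53.3% of the 17353 genes tested with reads in every library of both groups. The minimum set on imbibed Col-0 favours members below it. The median log2 ratio was -0.95, beside -0.018 for all genes. All 3 mkk3-1 libraries lay below all 3 Col-0 libraries for 16 members, where 18.1% of all genes tested did so. They lay above for 1 member, where 14.6% did so. Without the second mkk3-1 library 2 members lay above, where 20.2% of all genes did so. Imbibed mpk7_ko3 stood at a median of 62.5%, with 25 of 26 genes below, beside 51.8% of 17343 genes counted in the same way. Its median log2 ratio was -0.74, beside -0.011 for all genes. Its libraries lay below those of Col-0 without overlap for 13 members (15.9% of all genes tested) and above for 0 (15.1%). Both mutants lay below Col-0 without overlap for 7 genes, mkk3-1 alone for 9 and mpk7_ko3 alone for 6, where 9.85%, 8.22% and 6.09% of all genes tested did so. Another 3 members overlapped Col-0 in both, as did 54.5% of all genes. Both mutants are set against the same Col-0 libraries, so these counts are not independent of each other.

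**Figure D3:**
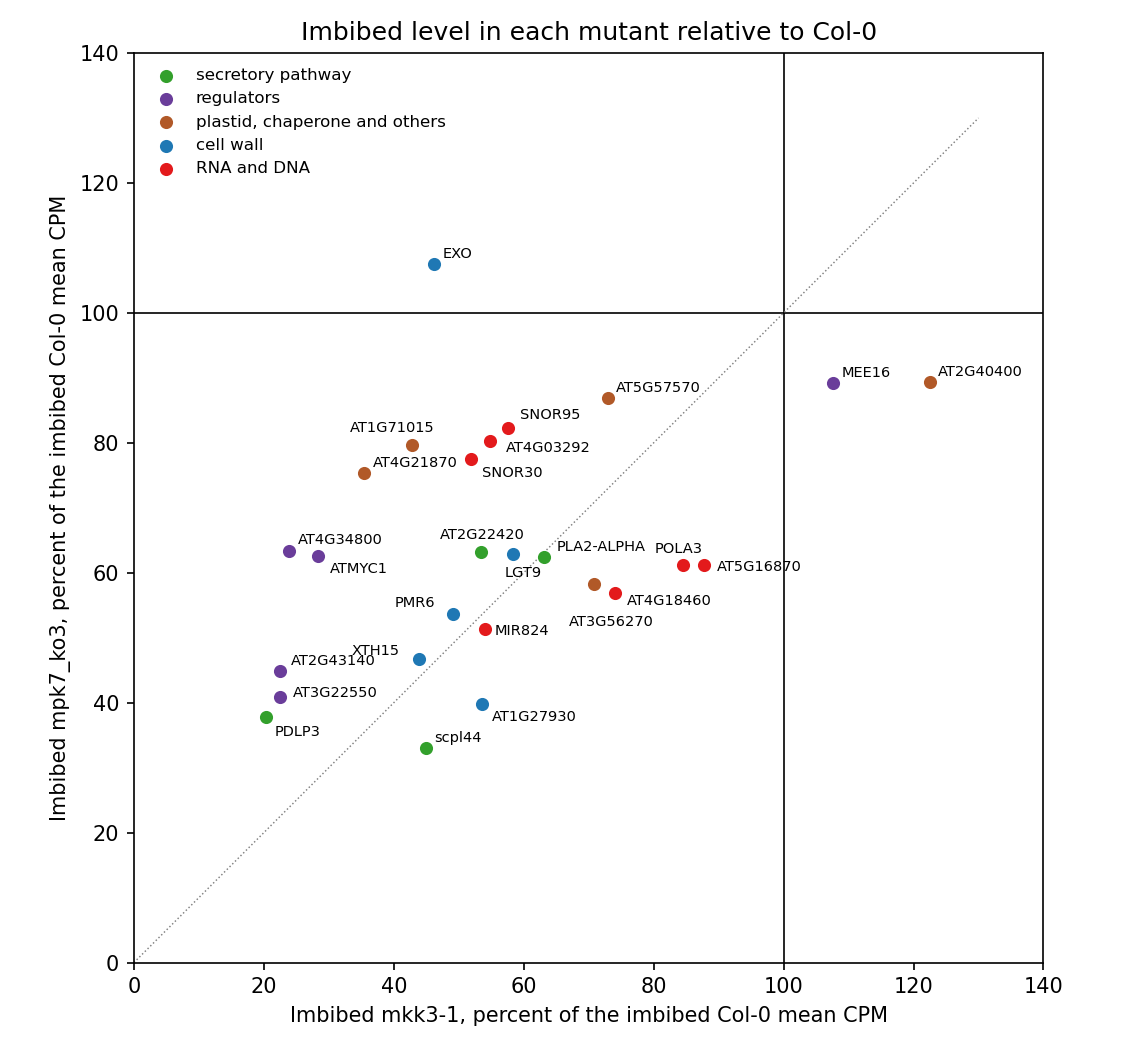
Mean CPM of each gene in imbibed mkk3-1 (horizontal axis) and imbibed mpk7_ko3 (vertical axis) as a percent of the mean in imbibed Col-0, coloured by role, with lines at 100% and a dotted diagonal of equal values. EXO lies at 46.2% in mkk3-1 and 107% in mpk7_ko3, AT2G40400 at 123% and 89.4%, and PDLP3 at 20.4% and 37.7%.

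Set against each other, imbibed mkk3-1 and imbibed mpk7_ko3 gave 0 calls among the 26 genes by edgeR at the adjusted threshold of 0.05. Of all genes tested 0.13% were higher and 0.208% lower in mkk3-1. At an unadjusted p below 0.05 there were 6 members, all lower in mkk3-1, namely EXO, AT4G21870, ATMYC1, AT4G34800, AT1G71015 and AT2G43140, beside 4.57% of all genes higher and 6.37% lower at that threshold. Their lowest adjusted p was 0.138, and DESeq2 called 1 of the 26, EXO, beside 0.766% of all genes lower. The libraries did not overlap for 6 members lower and 1 member higher in mkk3-1, beside 10.2% and 7.47% of all genes tested. The median log2 difference over the members was -0.19, beside -0.012 over all genes. The size of the imbibition response itself passed the test of a difference between the mutants for 0 members by edgeR, with 0 at an unadjusted p below 0.05 and 0 by DESeq2, where 0.0169% of all genes were called higher and 0.0113% lower in mkk3-1 and 5.17% passed the unadjusted threshold. That test rests on the same few dry reads.

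Single libraries weighed on these values. The third imbibed mkk3-1 library was the highest of its group for 14 of 26 genes, and the third imbibed mpk7_ko3 library the lowest of its group for 15, while the first was the highest for 17. Without the third imbibed mpk7_ko3 library, edgeR called EXO lower in mkk3-1 (adjusted p = 0.034), with 0.555% of all genes called lower. Without the third mpk7_ko3 library in both states it called EXO and AT4G21870 (adjusted p = 0.0109 and 0.0492), with 1.12% of all genes called lower. Sums of tissue marker genes lay below Col-0 for every list in imbibed mkk3-1. In imbibed mpk7_ko3 they did so only for green tissue and otherwise overlapped Col-0. Such a sum can be set by its most abundant genes. The summed CPM of 4 endosperm genes was 3073 to 3444 in imbibed mkk3-1, 5883 to 9122 in imbibed mpk7_ko3 and 5212 to 7035 in imbibed Col-0, and none of them was at 0. For 4 genes of green tissue it was 85.2 to 99.8, 56.7 to 72.9 and 104 to 126 CPM in the same order of genotypes, and for 6 seed coat genes 10.96 to 11.8, 11.5 to 13.2 and 12.6 to 15.1 CPM, with none at 0. The 6 embryo storage genes summed to 28177 to 35087 CPM in imbibed mkk3-1, 31004 to 45753 CPM in imbibed mpk7_ko3 and 36057 to 38444 CPM in imbibed Col-0. In dry seeds the endosperm sum was 11465 to 12953 CPM in mkk3-1 and 17627 to 24248 CPM in Col-0. The dry embryo storage sum was 42483 to 50294 and 61880 to 73861 CPM in the same order. Dry mkk3-1 overlapped Col-0 for seed coat and green tissue, and dry mpk7_ko3 did so for every list. The part of these markers in the results was not tested.

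**Figure D4:**
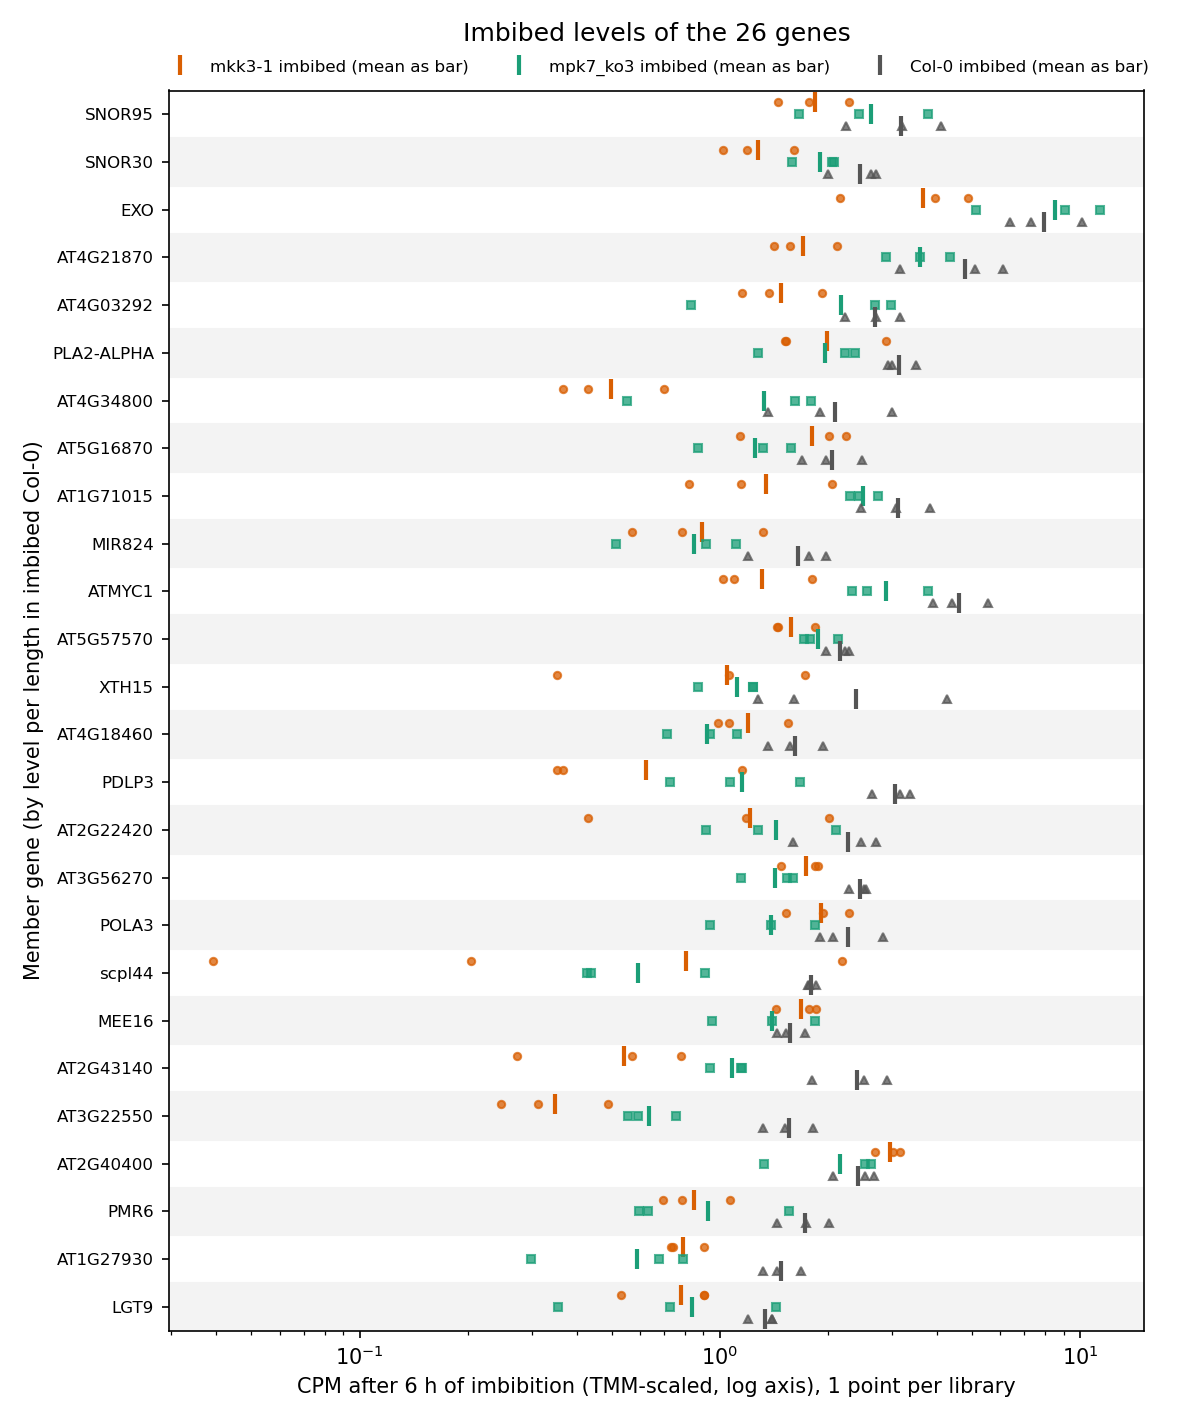
CPM of each gene in every imbibed library (points, log axis), with the group mean as a vertical bar, for mkk3-1 above mpk7_ko3 above Col-0 within each row. The rows run from the highest to the lowest level per length in imbibed Col-0. The mkk3-1 points of scpl44 spread from 0.0391 to 2.18 CPM, the widest range of mkk3-1 points on the log axis.

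The cell wall genes were led by EXO (AT4G08950, EXORDIUM), which codes for a secreted protein of growing tissue that responds to brassinosteroids and which had the highest CPM of all members. EXO gave 55, 97 and 119 counts in imbibed mkk3-1, 285, 213 and 130 in imbibed mpk7_ko3, and 177, 160 and 246 in imbibed Col-0. Dry libraries held 0 EXO reads in mkk3-1, 3 in mpk7_ko3 and 3 in Col-0. Its mkk3-1 libraries lay below all others, and mpk7_ko3 overlapped Col-0. On imbibition EXO stood at least 20.5-fold higher in mkk3-1, against a floor of 3 counts per dry library, and 131-fold higher in mpk7_ko3 (95% counting interval 44.6 to 637). Floors and counting intervals cover counting error only. Imbibed mkk3-1 was at 46.2% and imbibed mpk7_ko3 at 107% of Col-0, and mkk3-1 differed from mpk7_ko3 by a log2 value of -1.22 ± 0.338 (SE, edgeR adjusted p = 0.138, range 0.0091 to 0.626 over the alternatives). The start of EXO lies on the forward strand of chromosome 4, at base 5740219 of TAIR10. As the most abundant member, its promoter is shown from 250 bases before the start to 25 after it, at chr4:5739969-5740243, with matches to the searched motifs in capitals.

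EXO promoter: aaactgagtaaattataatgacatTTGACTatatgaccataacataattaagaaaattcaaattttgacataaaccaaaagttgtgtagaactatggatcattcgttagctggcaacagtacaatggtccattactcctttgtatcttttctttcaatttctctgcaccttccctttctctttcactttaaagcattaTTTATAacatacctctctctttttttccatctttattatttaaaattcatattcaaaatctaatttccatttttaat

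The capitals mark TTGACT (W-box) at 226 bases and TATAAA, the letters of a TATA box, on the reverse strand at 52 bases before the start. EXO lies on the forward strand, so the TATAAA match does not run in its direction.

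The other cell wall genes were less abundant. XTH15 (AT4G14130), a xyloglucan endotransglucosylase that cuts and rejoins wall xyloglucan, gave 9, 26 and 42 counts in imbibed mkk3-1, 31, 29 and 22 in imbibed mpk7_ko3, and 31, 107 and 39 in imbibed Col-0. It had no dry read in either mutant and 1 in Col-0, and stood at least 5.84-fold higher on imbibition in mkk3-1 and at least 5.70-fold higher in mpk7_ko3. A single Col-0 library lay far above the others, and mkk3-1 overlapped Col-0. The mpk7_ko3 libraries lay below Col-0 only narrowly, with 1.24 CPM in the highest against 1.28 CPM in the lowest Col-0 library. PMR6 (AT3G54920), a pectate lyase-like protein known from resistance to powdery mildew, averaged 0.848 ± 0.195 CPM in imbibed mkk3-1, 0.927 ± 0.541 CPM in mpk7_ko3 and 1.73 ± 0.287 CPM in Col-0 (SD, n = 3 each). It shares 810 bases with a gene on the opposite strand, AT3G54910, which had 409 to 678 counts in imbibed libraries and 98 to 156 in dry ones, so its reads may be shared. AT1G27930, annotated as a methyltransferase of the family that acts on glucuronoxylan, was below Col-0 without overlap in both mutants, at 53.5% in mkk3-1 and 39.8% in mpk7_ko3. LGT9 (AT1G24170), also named GATL8, is a galacturonosyltransferase-like protein of a family linked to pectin synthesis. It gave 23, 13 and 22 counts in imbibed mkk3-1 and 8, 0 and 0 in dry mkk3-1, and 36, 17 and 9 in imbibed mpk7_ko3 and 1, 3 and 3 in dry mpk7_ko3. LGT9 had the smallest response of all members, a log2 change of 2.26 ± 0.77 in mkk3-1 (adjusted p = 0.0124) and 2.43 ± 0.787 in mpk7_ko3 (adjusted p = 0.0092). Its call in mkk3-1 was lost without the second or without the third dry mkk3-1 library (adjusted p = 0.0551 and 0.0626), and that in mpk7_ko3 without the first imbibed library (adjusted p = 0.0694). Over the alternatives adjusted p ran from 0.000197 to 0.0626 in mkk3-1 and from 0.00174 to 0.0694 in mpk7_ko3. Over the cell wall group of 5 genes, the median was 49.1% of Col-0 in mkk3-1 and 53.7% in mpk7_ko3.

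A second group of 7 genes works on RNA, protein synthesis or DNA. Per length, the 2 small nucleolar RNAs had the highest levels of all members. SNOR95 averaged 13.6 CPM per kilobase in imbibed mkk3-1, 19.4 in imbibed mpk7_ko3 and 23.6 in imbibed Col-0, and SNOR30 11, 16.4 and 21.1 in the same order. Small nucleolar RNAs guide the chemical modification of ribosomal RNA. They fall into a class with an ACA triplet just before its end, which guides pseudouridylation, and a class with boxes C and D, which guides methylation. The gene sequences are given to show these features, read from the genome at chr1:9076048-9076182 (reverse strand) for SNOR95 and chr5:20795936-20796051 (forward strand) for SNOR30.

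SNOR95: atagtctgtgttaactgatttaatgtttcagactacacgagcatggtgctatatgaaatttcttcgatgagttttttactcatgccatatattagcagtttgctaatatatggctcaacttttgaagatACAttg
SNOR30: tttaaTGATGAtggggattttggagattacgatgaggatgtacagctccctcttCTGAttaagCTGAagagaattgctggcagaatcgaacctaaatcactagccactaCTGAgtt

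In SNOR95 the capitals mark the last ACA, followed by 3 bases. In SNOR30 they mark TGATGA, the form of a box C, from base 6, and CTGA, the form of a box D, from bases 55, 64 and 110. SNOR95 (AT1G26233, 135 bases) gave 37, 56 and 43 counts in imbibed mkk3-1 against 4, 4 and 0 in dry mkk3-1, and 95, 57 and 42 in imbibed mpk7_ko3 against 3, 1 and 1 in dry mpk7_ko3. In Col-0 it gave 100, 56 and 78 counts imbibed and 1, 0 and 0 dry. It rose by a log2 value of 3.47 ± 0.568 in mkk3-1 (adjusted p = 1.40e-05) and 4.52 ± 0.603 in mpk7_ko3 (adjusted p = 9.76e-07), and imbibed libraries of both mutants overlapped Col-0. SNOR30 (AT5G51174, 116 bases) gave 41, 25 and 29 counts in imbibed mkk3-1 against 2, 0 and 8 in dry mkk3-1, and 52, 48 and 40 in imbibed mpk7_ko3 against 1, 1 and 6 in dry mpk7_ko3. Imbibed Col-0 held 64, 50 and 66 SNOR30 counts, above all mkk3-1 libraries. Its rise was 2.65 ± 0.625 in mkk3-1 (adjusted p = 0.000748) and 3.42 ± 0.634 in mpk7_ko3 (adjusted p = 6.11e-05). Genes this short hold only a few fragments of a library with paired reads, so their counts also depend on how fragments were sized. SNOR30 lies 108 and 77 bases from AT5G07725 and AT5G07735 on the same strand, which had 50 to 94 and 8 to 31 counts in imbibed mutant libraries and 3 to 17 and 0 to 3 in dry ones.

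MIR824 (AT4G24415) is the precursor gene of miR824, a microRNA that cleaves the messenger RNA of AGL16, a MADS-box gene of stomatal development and flowering time. The gene lies on the forward strand of chromosome 4, from 12625094 to 12625782, and its 2 mature products are shown with the seed, bases 2 to 8, in capitals. They come from the RefSeq annotation of TAIR10.1, at chr4:12625128-12625148 and chr4:12625721-12625741.

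ath-miR824-5p: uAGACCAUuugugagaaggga
ath-miR824-3p: cCUUCUCAucgauggucuaga

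MIR824 gave 20, 14 and 32 counts in imbibed mkk3-1, 23, 26 and 13 in imbibed mpk7_ko3, and 43, 30 and 48 in imbibed Col-0. In dry seeds the libraries held 0, 3 and 0 counts in mkk3-1, 0 in all of mpk7_ko3, and 0, 1 and 0 in Col-0. It stood 14.9-fold higher on imbibition in mkk3-1 (95% counting interval 4.88 to 74.0) and at least 4.33-fold higher in mpk7_ko3. Its mpk7_ko3 libraries lay below all of Col-0, and those of mkk3-1 overlapped Col-0. The counts are of the precursor transcript, and mature miRNAs were not measured by these libraries. AGL16 itself averaged 4.51 ± 0.202 CPM in imbibed mkk3-1, 4.23 ± 0.76 CPM in imbibed mpk7_ko3 and 3.64 ± 0.164 CPM in imbibed Col-0 (SD, n = 3 each). In dry seeds it averaged 2.50, 2.22 and 2.45 CPM in the same order.

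POLA3 (AT5G41880) codes for a subunit of DNA primase, which lays down the primers for DNA replication. It gave 39, 56 and 47 counts in imbibed mkk3-1, 46, 22 and 35 in imbibed mpk7_ko3, and 50, 71 and 46 in imbibed Col-0. POLA3 stood 32-fold higher on imbibition in mkk3-1 (95% counting interval 10.7 to 157) and 64.5-fold higher in mpk7_ko3 (11.3 to 2570). At 84.6% of Col-0 its mkk3-1 libraries overlapped those of Col-0, and at 61.2% those of mpk7_ko3 lay below them. This margin was narrow, with 1.83 CPM in the highest mpk7_ko3 library against 1.89 CPM in the lowest Col-0 library. The promoter of POLA3 (chr5:16760596-16760870, forward strand) is shown because it was the one among the members with a match to TTTCCCGC, a form of the site bound by E2F factors at replication genes.

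POLA3 promoter: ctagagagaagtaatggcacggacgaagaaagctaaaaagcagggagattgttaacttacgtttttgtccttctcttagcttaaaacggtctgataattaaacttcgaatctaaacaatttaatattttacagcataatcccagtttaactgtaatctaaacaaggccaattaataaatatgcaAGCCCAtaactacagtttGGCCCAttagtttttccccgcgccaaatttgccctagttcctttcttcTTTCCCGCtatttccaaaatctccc

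Capitals mark TTTCCCGC from the first transcribed base on, and TGGGCT and TGGGCC (site II motifs) on the reverse strand, 66 and 48 bases before the start.

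Among the rest of the group, AT5G16870 is annotated as a peptidyl-tRNA hydrolase, an enzyme that frees tRNA from stalled peptides. It gave 29, 55 and 49 counts in imbibed mkk3-1, 33, 37 and 22 in imbibed mpk7_ko3, and 48, 62 and 41 in imbibed Col-0. AT4G18460, annotated as a D-Tyr-tRNA deacylase that clears wrongly charged tRNA, had the most reads of any member in dry mkk3-1, with 2, 7 and 3 in dry mkk3-1, 2, 2 and 1 in dry mpk7_ko3, and 0, 0 and 3 in dry Col-0. It shares 126 bases with SNI1 on the opposite strand, so its reads may be shared. SNI1 had 46 to 71 counts in imbibed libraries and 4 to 16 in dry ones. AT4G18460 rose by a log2 value of 2.29 ± 0.537 in mkk3-1 (adjusted p = 0.000704) and 3.02 ± 0.644 in mpk7_ko3 (adjusted p = 0.000283). AT5G16870 and AT4G18460 were below Col-0 without overlap in mpk7_ko3, at 61.3% and 56.9%, and overlapped it in mkk3-1. AT4G03292 is annotated as a ribonuclease H-like protein and showed the opposite, with 54.7% of Col-0 and no overlap in mkk3-1 and 80.2% and overlap in mpk7_ko3. Over the 7 genes, the median was 57.5% in mkk3-1 and 61.3% in mpk7_ko3.

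Among transcription regulators and other regulatory proteins, 4 of 5 genes lay below Col-0 without overlap in mkk3-1. So did 16 of all 26 members and 18.1% of all genes tested, and the imbibed Col-0 libraries had a part in choosing the members. ATMYC1 (AT4G00480) is a bHLH factor related to those that control anthocyanin and epidermal cell fate. It gave 28, 25 and 44 counts in imbibed mkk3-1, 95, 60 and 59 in imbibed mpk7_ko3, and 135, 110 and 95 in imbibed Col-0. The 3 genotypes did not overlap and stood in that order, at 28.3% of Col-0 in mkk3-1 and 62.6% in mpk7_ko3. The highest mpk7_ko3 library, with 3.78 CPM, lay only narrowly below the lowest Col-0 library, with 3.90 CPM. Imbibed mkk3-1 differed from mpk7_ko3 by -1.14 ± 0.368 (log2, edgeR adjusted p = 0.202). AT2G43140, another bHLH gene, gave 7, 14 and 19 counts in imbibed mkk3-1, 29, 22 and 29 in imbibed mpk7_ko3, and 61, 45 and 71 in imbibed Col-0. It showed the same order without overlap, at 22.5% and 44.8% of Col-0. AT3G22550, a DUF581 protein, the plant FLZ zinc finger family, gave 8, 12 and 6 counts in imbibed mkk3-1, 19, 13 and 15 in imbibed mpk7_ko3, and 44, 33 and 37 in imbibed Col-0. Here too the 3 genotypes stood apart, at 22.6% and 40.9%.

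AT4G34800 (SAUR4) belongs to the small auxin up RNA family, many of whose members promote cell expansion. SAUR4 gave 11, 9 and 17 counts in imbibed mkk3-1, 45, 38 and 14 in imbibed mpk7_ko3, and 73, 34 and 46 in imbibed Col-0. It had no dry read in any of the 9 dry libraries, and stood at least 2.78-fold higher on imbibition in mkk3-1 and at least 6.76-fold higher in mpk7_ko3. All mkk3-1 libraries lay below Col-0, while the third mpk7_ko3 library lay within the mkk3-1 range. MEE16 (AT2G18650), a RING-type protein named for an embryo arrest mutant, stood in contrast with 45, 35 and 45 counts in imbibed mkk3-1, 35, 43 and 24 in imbibed mpk7_ko3, and 37, 43 and 35 in imbibed Col-0. Its 3 groups overlapped, at 108% and 89.2% of Col-0. Over the 5 regulators, the median was 23.9% of Col-0 in mkk3-1 and 62.6% in mpk7_ko3.

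A group of 4 members enters the secretory pathway or acts at the cell surface. PDLP3 (AT2G33330) is a plasmodesmata-located protein, of a family that governs traffic between cells. It gave 9, 9 and 28 counts in imbibed mkk3-1, 42, 17 and 27 in imbibed mpk7_ko3, and 82, 66 and 77 in imbibed Col-0. PDLP3 had the lowest mkk3-1 level of all members, 20.4% of Col-0, with 37.7% in mpk7_ko3, and both mutants lay below Col-0 without overlap. It rose by 2.87 ± 0.78 in mkk3-1 (adjusted p = 0.00253) and by 3.65 ± 0.733 in mpk7_ko3 (adjusted p = 0.000149). PLA2-ALPHA (AT2G06925) is a secreted phospholipase A2. It averaged 1.98 ± 0.791 CPM in imbibed mkk3-1, 1.96 ± 0.594 CPM in mpk7_ko3 and 3.14 ± 0.309 CPM in Col-0 (SD, n = 3 each). Both mutants lay below Col-0, mkk3-1 only narrowly, with 2.89 CPM in its highest library against 2.92 CPM in the lowest of Col-0. AT2G22420, a class III peroxidase gene, gave 11, 29 and 49 counts in imbibed mkk3-1, 23, 30 and 53 in imbibed mpk7_ko3, and 60, 40 and 66 in imbibed Col-0, with overlap throughout.

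The serine carboxypeptidase-like gene scpl44 (AT1G43780) had no read in any dry library and was the most uneven member after imbibition. It gave 1, 5 and 53 counts in imbibed mkk3-1, 11, 10 and 23 in imbibed mpk7_ko3, and 43, 44 and 45 in imbibed Col-0. The third mkk3-1 library lay above all Col-0 libraries and the first lay near the level of dry seeds. Its mean, 45.0% of Col-0 in mkk3-1, therefore rests on 1 library, and its imbibed level stood at least 4.50-fold above the floor for dry mkk3-1 and at least 3.03-fold above that for dry mpk7_ko3. The call in mpk7_ko3 (adjusted p = 0.0116) was lost without the third dry and imbibed libraries of that genotype (adjusted p = 0.0544, the highest of the alternatives, which began at 0.000277).

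The remaining 5 genes have plastid, chaperone or poorly known roles. AT4G21870 is annotated as an HSP20-like chaperone, of the fold of small heat shock proteins that hold unfolded proteins. It gave 36, 52 and 38 counts in imbibed mkk3-1, 109, 84 and 73 in imbibed mpk7_ko3, and 148, 79 and 124 in imbibed Col-0. All mkk3-1 libraries lay below those of the other genotypes, which overlapped. AT4G21870 stood 85.3-fold higher on imbibition in mkk3-1 (95% counting interval 15 to 3394) and 83.2-fold higher in mpk7_ko3 (22.8 to 691). Imbibed mkk3-1 differed from mpk7_ko3 by -1.08 ± 0.328 (log2, edgeR adjusted p = 0.167, range 0.0492 to 0.635 over the alternatives). AT1G71015, annotated as plastid movement impaired protein, gave 21, 28 and 50 counts in imbibed mkk3-1, 69, 57 and 58 in imbibed mpk7_ko3, and 60, 77 and 93 in imbibed Col-0. Its mkk3-1 libraries were again below both others. The gene shares 113 bases with FAB1C on the opposite strand, which had 1543 to 1871 counts in the imbibed libraries.

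AT3G56270 belongs to the WEB family, known from chloroplast movement, and lay below Col-0 without overlap in both mutants, at 70.8% in mkk3-1 and 58.3% in mpk7_ko3. AT5G57570 gave 37, 45 and 35 counts in imbibed mkk3-1, 43, 50 and 45 in imbibed mpk7_ko3, and 54, 57 and 48 in imbibed Col-0. AT2G40400 (BPG3), named for a pale green mutant that tolerates a brassinosteroid inhibitor, was the 1 member with all mkk3-1 libraries above Col-0. It gave 69, 74 and 77 counts in imbibed mkk3-1, 66, 31 and 64 in imbibed mpk7_ko3, and 50, 63 and 65 in imbibed Col-0. Its mkk3-1 libraries lay above all others in CPM, at 123% of Col-0. The margin was narrow, with 2.70 CPM in the lowest mkk3-1 library against 2.67 CPM in the highest Col-0 library. Of all genes tested, 14.6% lay above Col-0 without overlap in mkk3-1. The difference of AT2G40400 between mkk3-1 and mpk7_ko3 was 0.45 ± 0.308 (log2, edgeR adjusted p = 0.642).

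Levels can be compared between genes per length. Among the protein-coding members, EXO held 5.77 CPM per kilobase, AT4G21870 4.63 and AT4G03292 3.59 in imbibed Col-0, and the lowest were PMR6, AT1G27930 and LGT9 with 0.78, 0.724 and 0.719. In imbibed mkk3-1 the order of these genes was led by EXO with 2.67 and AT5G16870 with 2.33 CPM per kilobase, and in imbibed mpk7_ko3 by EXO with 6.21 and AT4G21870 with 3.49. PLA2-ALPHA and AT4G34800, neighbours in the Col-0 order with 2.92 and 2.86 CPM per kilobase, differed by less than the spread of their libraries. The exonic length of the protein-coding members had a median of 1440 bases, beside 1553 bases for all protein-coding genes.

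The same limits applied to the mutants' own libraries picked mostly other genes. In mkk3-1, 10 genes had 3 or fewer dry reads and 30 or more in each imbibed library, and 3 of these were members (EXO, AT4G21870 and POLA3), which is 30% of the mkk3-1 list and 11.5% of the members. In mpk7_ko3, 20 genes met the limits and 4 were members (AT1G71015, EXO, AT4G21870 and AT5G57570), which is 20% of that list and 15.4% of the members. EXO and AT4G21870 met them in all 3 genotypes. Few members met both limits in a mutant, since 9 had each imbibed library at 30 or more in mkk3-1 and 9 in mpk7_ko3, while 15 and 14 had a dry sum of 3 or fewer. In Col-0, 4 members had an imbibed library at 30 to 32 counts (LGT9, AT1G27930, XTH15 and MIR824) and 10 had a dry sum of exactly 3. Just outside lay 11 genes with a lowest imbibed library of 27 to 29, such as PME44 with 38, 27 and 40 counts, and 9 genes with a dry sum of 4, such as PRL, a replication licensing factor, with 74, 118 and 91 imbibed counts.

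The families that hold members, counted with those members, were set beside the share of all genes tested that rose and fell on imbibition, 37.5% and 35.8% in mkk3-1 and 37.6% and 34.9% in mpk7_ko3. Rises outnumbered falls in both mutants for 7 of the 12 families. Of 135 tested snoRNA genes, 89 rose and 4 fell in mkk3-1, and 102 rose and 3 fell in mpk7_ko3, with median log2 changes of 1.66 and 2.04, beside 0.048 and 0.059 over all genes tested. Of 25 DNA replication genes, 16 rose and 3 fell in mkk3-1 and 19 and 4 in mpk7_ko3, and of 38 miRNA genes, 16 rose and 3 fell in mkk3-1 and 18 and 2 in mpk7_ko3. Of 12 xyloglucan endotransglucosylase genes, 7 rose and 2 fell in mkk3-1 and 8 and 2 in mpk7_ko3. The smaller families were EXORDIUM with 4 rises and 2 falls among 6 in either mutant, PDLP with 2 and 1 among 4 in mkk3-1 and 3 and 1 in mpk7_ko3, and serine carboxypeptidase-like genes with 8 and 5 among 18 in mkk3-1 and 8 and 6 in mpk7_ko3. Falls outnumbered rises in both mutants for 4 families. Of 22 SAUR genes, 6 rose and 14 fell in mkk3-1 and 5 and 14 in mpk7_ko3, and of 38 pectin lyase-like genes, 7 rose and 21 fell in mkk3-1 and 8 and 23 in mpk7_ko3. Of 61 bHLH genes, 20 rose and 27 fell in mkk3-1 and 23 and 27 in mpk7_ko3, and of 18 peroxidases 5 rose and 8 fell in mkk3-1 and 6 and 7 in mpk7_ko3. HSP20-like genes were even in mkk3-1, with 8 rises and 8 falls among 24, and had 11 and 9 in mpk7_ko3.

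Promoters of the 23 protein-coding members, from 250 bases before to 50 after the start, were searched on both strands for 10 motifs, beside 27431 promoters of the same length from the genome. ACGTG, the core of the element that responds to abscisic acid, was in 43.5% of member promoters (10 of 23) and 26.7% of all promoters, and CACGTG (G-box), which contains it, in 8.70% and 7.68%. TATAAA was in 39.1% and 52.1%, TTGACC or TTGACT (W-box) in 34.8% and 32.4%, and TGGGCC or TGGGCT (site II) in 17.4% and 21.7%. TAACAAA, the gibberellin response element, was in 13.0% and 18.4%, and CATGCA, the RY core of seed promoters, in 13.0% and 9.72%. AAACCCTA (telo box) was in 8.70% and 6.22%, TAAATGCA or TAAATGTA (L1 box) in 8.70% and 5.10%, and TTTCCCGC in 4.35% and 0.798%. The median GC content was 32.7% in member promoters and 32% in all. A match is a description of the letters and not a bound site.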

How the data were processed

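RNA of whole seeds was sequenced as paired reads, per the labels' protocols. The authors deposited 1 table of raw counts per gene and library, with gene lengths in bases. The submitters' processing notes name featureCounts 2.0.1 for counting, HISAT2 2.1.0, fastp 0.20.0, DESeq2 1.34.0 and TAIR10. The strand setting and the handling of reads with several matches are not given in the sources used here, so 8 members that overlap another gene may share reads with it. The members and lists were chosen with earlier results of these data known.

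Counts were fitted in edgeR 4.0.16 (R 4.3.3) with TMM factors, genes kept by filterByExpr (minimum count 10; 17758 of 32833 kept) and a mean for each of 6 groups over 18 libraries, which leaves 12 residual degrees of freedom. Two-sided p-values were Benjamini-Hochberg adjusted over these genes, with a threshold of 0.05. Tests were run for imbibition in each mutant, for mkk3-1 against mpk7_ko3, imbibed and dry, and for the difference of their responses. Contrasts with Col-0 were not tested, since the rule used its libraries. SE is the log2 change over the square root of edgeR's F. CPM are scaled with TMM factors. Library totals in place of TMM raise log2 ratios of imbibed to dry CPM by 0.56 in both mutants, and the fitted changes of the members by 0.27 to 0.55 in mkk3-1 and 0.22 to 0.55 in mpk7_ko3, so changes are relative to the scaling. Where a dry group had no read, folds are given against a floor of 3 counts per library; with 1 to 3 reads, as a ratio with a 95% counting interval. The fit was tried on simulated data, with changes planted only between imbibed mkk3-1 and imbibed mpk7_ko3. These changes were set in genes above a minimum level that most members did not reach. The trial therefore does not cover the other contrasts or most members, and its outcome is not given here.

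Members named with values were those with the highest level per length, the lowest and highest ratios to Col-0, the most dry reads, positions near the limits, or a place among the first 4 of their role. Family lists were set by annotation, and markers of embryo, seed coat, endosperm and green tissue by locus. All 26 members, and 99.95% of 32548 nuclear genes, had the same start, end and strand in the deposited table's annotation and in RefSeq's TAIR10.1, from which sequences were read. Alternatives were DESeq2 1.42.0, its size factors, library totals, no filter, a block for the replicate number, a fit restricted to the libraries of a contrast, stricter thresholds, stricter limits for members and each library left out. Leaving out the third mpk7_ko3 libraries in both states, alone or with the third imbibed mkk3-1 library, was chosen after seeing the data.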

Additional observations from a re-analysis of the deposited data

How the results depend on the processing

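All 26 genes remained called on imbibition in both mutants by DESeq2, with its size factors, with library totals, without a filter and with the replicate number as a block (26 in mkk3-1 and 26 in mpk7_ko3). Of 17758 genes, library totals called 10442 higher in mkk3-1 and 10447 in mpk7_ko3, beside 6657 and 6684 in the main fit. The other settings called 6501 to 6729 in mkk3-1 and 6441 to 6890 in mpk7_ko3, with 25107 genes tested without a filter. As in the main fit, such calls of members add no support. Leaving out each library gave 25 to 26 in either mutant, LGT9 being the gene lost. Over all genes these fits called 6260 to 6808 higher in mkk3-1 and 6332 to 6743 in mpk7_ko3, of 17992 to 18046 tested. Without the third mpk7_ko3 library in both states, scpl44 was lost in mpk7_ko3. An adjusted p below 0.01 lost LGT9 in mkk3-1 and scpl44 in mpk7_ko3, with 5698 and 5730 of 17758 genes called higher. Stricter limits left 2 members with no dry Col-0 read, and 6 with 60 or more counts in each imbibed Col-0 library. All of these rose in both mutants, which was fixed in advance, since the main fit called all 26 and was not repeated.

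Between imbibed mkk3-1 and imbibed mpk7_ko3, 1 member (EXO) was lower by DESeq2, 1 without the filter (adjusted p = 0.0091), 0 to 1 with each library left out, 2 without the third mpk7_ko3 library in both states and 1 without these and the third imbibed mkk3-1 library (adjusted p = 0.0107). Over all genes the shares lower were 0.766%, 0.542%, 1.12% and 0.696% for DESeq2, no filter and the last pair of settings. The block gave 0. Without the filter 25107 genes were tested; the cause of these changes was not tested.

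Against imbibed Col-0, leaving out each library gave 16 to 20 members below without overlap, 1 to 2 above and a median of -1.08 to -0.87 in mkk3-1, and 14 to 18 below and a median of -0.89 to -0.60 in mpk7_ko3. Fewer libraries can only keep or raise a count without overlap, and over all genes the shares below were then 22.2% to 24.5% in mkk3-1 and 19.9% to 22.7% in mpk7_ko3. The shares above were 18.1% to 20.2% in mkk3-1, and 18.8% to 21.0% in mpk7_ko3, where 0 members lay above. Of the 2 members with no dry Col-0 read, 1 lay below and 0 above in mkk3-1 (median -2.42) and 1 below in mpk7_ko3 (median -1.22). Of the 6 with 60 or more counts, 6 lay below and 0 above in mkk3-1 (median -1.38) and 3 below in mpk7_ko3. That higher minimum is set on the imbibed Col-0 libraries, which favours a lower ratio of mutant to Col-0. These counts are therefore a description and no check, and the share of all genes under that minimum was not computed. With the same limits in the mutants, a dry sum of 0 left 2 genes in mkk3-1 and 1 in mpk7_ko3, 0 of them members. A minimum of 60 left 1 gene in mkk3-1, with 0 members, and 6 in mpk7_ko3, with 2 members.

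Correlations of same-numbered deviations ran from -0.13 to 0.28. Between imbibed and dry libraries of the same mutant all were positive, 0.0081 to 0.11 in mkk3-1 and 0.044 to 0.28 in mpk7_ko3. Whether same-numbered libraries share a batch was not settled by these values, and the main fit did not pair them. A few reads per dry library limit every comparison of dry seeds.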

Other observations

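Among the genes that met the same limits in a mutant without being members, several have known roles. CHLI1, a subunit of the magnesium chelatase of chlorophyll synthesis, gave 61, 60 and 66 counts in imbibed mpk7_ko3, 100, 121 and 95 in imbibed mkk3-1, and 153, 128 and 127 in imbibed Col-0. MCM6, a helicase subunit of replication licensing, gave 75, 51 and 70 counts in imbibed mpk7_ko3 and 67, 92 and 77 in imbibed Col-0. The transcription factor bZIP44 gave 341, 313 and 154 counts in imbibed mpk7_ko3, 148, 195 and 174 in imbibed mkk3-1, and 385, 253 and 395 in imbibed Col-0, with 5 reads or fewer in the dry libraries of any genotype. PAP15, a purple acid phosphatase with phytase activity, met the limits in both mutants, with 36, 36 and 61 counts in imbibed mkk3-1, 57, 45 and 57 in imbibed mpk7_ko3, and 110, 114 and 136 in imbibed Col-0. It was not a member because dry Col-0 held 2, 2 and 2 reads. AT5G45650 had an uneven pattern like that of scpl44, with 7, 21 and 81 counts in imbibed mkk3-1, 127, 60 and 53 in imbibed mpk7_ko3, and 204, 181 and 329 in imbibed Col-0. These genes were chosen after their values were seen.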
